A study of Rattus norvegicus with 6 samples.

Results

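A set of 36 genes of sterol and fatty acid synthesis and its control by the sterol regulatory element binding proteins (SREBPs) was examined. The set includes 5 genes of sterol export, its receptors and sterol transport: Abca1, Abcg1, Nr1h2, Nr1h3 and Stard4. The genes were taken by gene symbol from a table of 17273 genes, and all 36 were found in it. RNA was sequenced from cultured nucleus pulposus cells, which populate the soft centre of the discs between the vertebrae. The cells came from wild-type male Sprague Dawley rats and were cultured in DMEM with 10% fetal bovine serum. In 3 libraries the cells had been given 10 mM lactate for 8 h, and in 3 control libraries they had received no treatment. The serum was shared by both groups, and it supplies cells with lipoprotein cholesterol. Nothing in the labels says that replicate libraries are from different cultures or animals, so p-values here measure the spread among the libraries, possibly only technical spread. Nor is it given if lactic acid or a lactate salt was used.

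The SREBPs are transcription factors made as membrane proteins of the endoplasmic reticulum. Scap carries them to the Golgi, where proteases release the active part, and the Insig proteins hold Scap back when sterols are plentiful. SREBP-2, encoded by Srebf2, mainly drives genes of cholesterol synthesis and uptake, and SREBP-1, encoded by Srebf1, mainly drives genes of fatty acid synthesis. The liver X receptors (LXRs), which sense oxidised sterols, drive genes of cholesterol export.

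The libraries held 30291357 to 38989574 counts. The median gene had 119 to 164 counts in lactate libraries and 343 to 390 in control libraries, and Col1a1, which encodes a collagen chain, took 8.02% to 10.1% of the counts in lactate and 3.90% to 4.72% in control libraries. Of the defining markers of the labelled cell type, Acan was at 2290 ± 183 CPM in lactate and 2393 ± 159 CPM in control libraries (SD, n = 3 each; CPM is counts per 1e6 of a library's total after scaling). Tbxt and Krt19 had 0 counts in all 3 lactate libraries, against 4, 4 and 4 (Tbxt) and 3, 4 and 2 (Krt19) counts in the control libraries. Summed over the 11 nucleus pulposus and notochord markers in the table, CPM was 2491 to 2831 in lactate and 2566 to 2883 in control libraries, most of it Acan. The other markers moved apart: of the 9 tested, Cd24 (2.32) and Sox9 (1.45) were called higher on the log2 scale and Pax1 (−0.88), Cdh2 (−1.11) and Foxa2 (−1.97) lower. The 5 annulus and fibroblast markers summed to 100810 to 145330 CPM in lactate and 29493 to 35321 CPM in control libraries, nearly all of it Col1a1. These 5 markers also moved apart. On the log2 scale 3 were called higher and 2 lower, Mkx (−2.36) and Pdgfra (−1.42), with a median of 1.09. Over all genes tested 31.4% were called higher and 34.6% lower. The sums were, for the 4 macrophage markers, 4.09 to 5.39 CPM in lactate and 9.60 to 10.6 CPM in control libraries and, for the 3 endothelial markers, under 1 CPM in every library. Only 2 of the macrophage markers were tested, and 1 was called higher (1.48 on the log2 scale) and 1 lower (−1.72). Adgre1 had 0 counts in the lactate libraries and Kdr had 0 in the control libraries. The marker genes that moved are named here after their values were seen. The part of these differences in the results below was not tested.

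The scaling between libraries sets the balance of directions. Scaled with TMM factors, which align the bulk of genes, 66.0% of 13747 tested genes were called, 31.4% higher and 34.6% lower in lactate (edgeR quasi-likelihood test, adjusted p under 0.05), with a median log2 fold change of −0.10. Scaled with library totals alone, 74.3% were called, 12.5% higher and 61.8% lower, with a median of −0.96. A further setting removed the trend of each library's counts on transcript length, and 64.3% were then called, 31.1% higher and 33.2% lower. Levels are in CPM with TMM factors unless FPKM is named. FPKM is the authors' value per transcript length and library total, and it alone serves to compare genes with each other. In bulk samples fewer cells of a type and less RNA per cell cannot be told apart.

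Of the 36 genes, 35 passed the filter on low counts, and Abcg1 did not. Of the 35, 27 were called, against 66.0% of all genes tested. They were 22 (62.9%) called higher in lactate, against 31.4% of all genes, and 5 (14.3%) lower, against 34.6%. The median log2 fold change of the 35 was 0.81, against −0.10 over all genes tested. With library totals 28 were called (74.3% of all genes), 13 higher (12.5%) and 15 lower (61.8%), and their median was −0.05, against −0.96. With the length trend removed 27 were called (64.3%), 23 higher (31.1%) and 4 lower (33.2%).

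The genes called higher with TMM factors and with library totals were Insig1, Insig2, Srebf1, Hmgcs1, Pmvk, Mvd, Cyp51, Msmo1, Sc5d, Dhcr7, Scd, Lpin1 and Stard4. The genes called lower in both were Lss, Acaca, Elovl6, Nr1h3 and Abca1. Fdft1 and Fads1 were called higher with TMM factors and lower with library totals. The CPM of the groups did not overlap in 28 of the 35 genes (72.2% of all genes), with lactate higher in 22 (33.7%) and lower in 6 (38.4%). By FPKM, with 7 of the 36 genes overlapping, lactate was higher in 14 (14.0% of the genes tested) and lower in 15 (64.6%). Ranks within a library do not depend on the scaling between libraries. By percentile of FPKM among the tested genes of its own library, 19 of the 35 genes stood higher in all 3 lactate libraries than in any control library, against 33.3% of all genes, and 5 stood lower, against 35.5%. Those lower by percentile were Acaca, Elovl6, Abca1, Scap and Fasn. Scap and Fasn were not called with TMM factors, and the percentiles of Lss and Nr1h3 overlapped between groups.

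**Figure D1:**
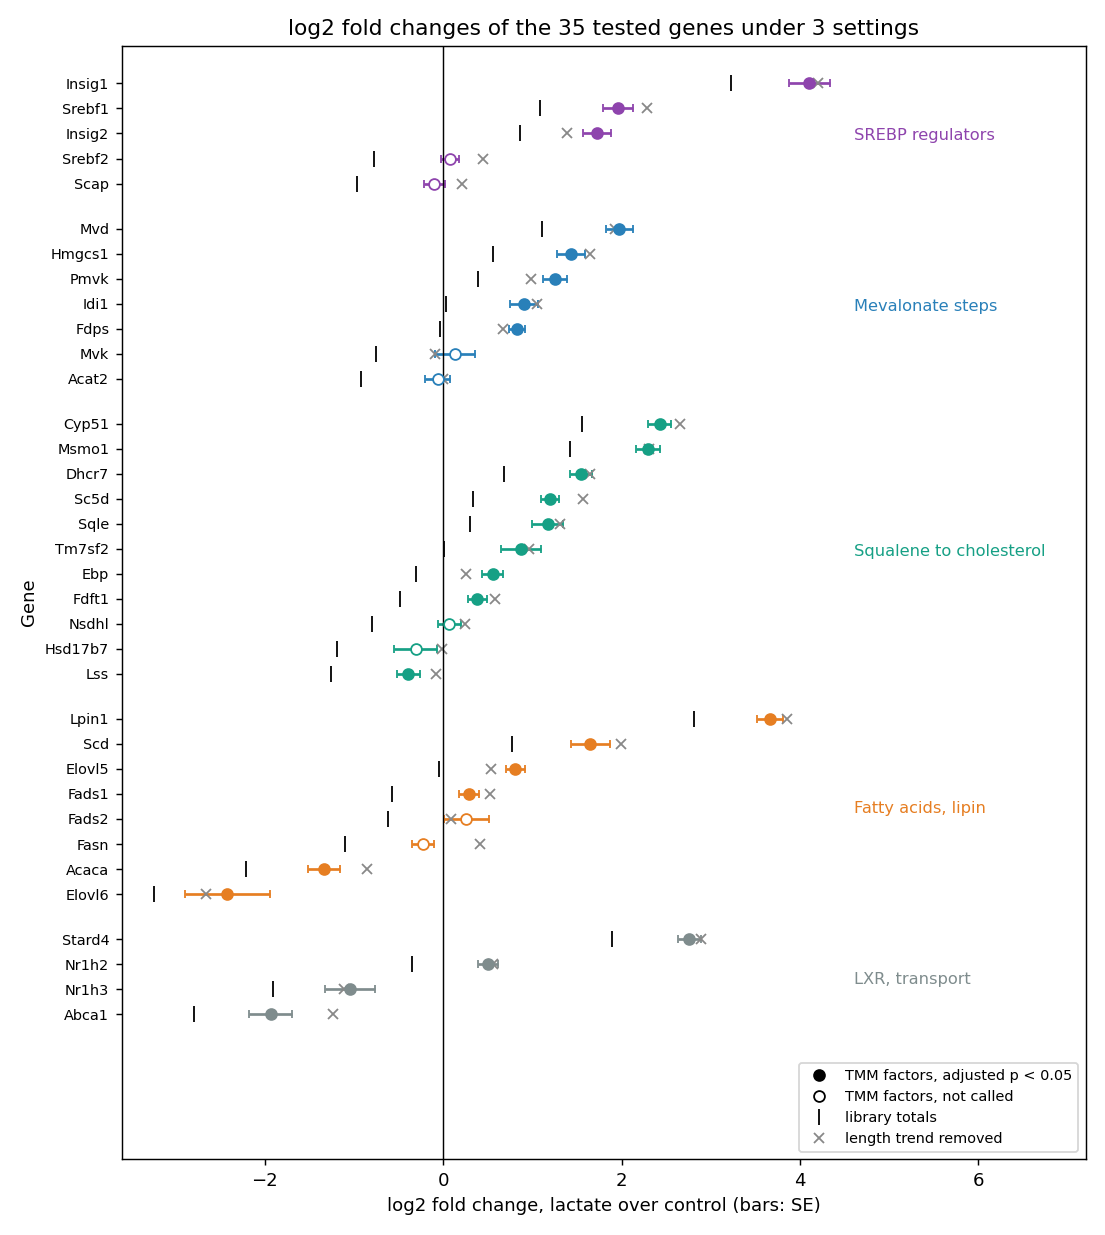
log2 fold change of lactate over control (horizontal axis) for the 35 tested genes, grouped by role. Circles with SE bars are values with TMM factors, filled where the edgeR adjusted p was under 0.05, vertical ticks are values with library totals and crosses are values with the trend on transcript length removed. Insig1, Lpin1 and Stard4 lie farthest to the right and Elovl6 and Abca1 farthest to the left in every setting drawn, while Srebf2, Mvk, Nsdhl, Fads1, Fads2, Fdft1, Nr1h2, Ebp, Elovl5 and Fdps cross 0 between TMM factors and library totals.

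Among the 5 regulators, both Insig genes and Srebf1 rose (3 of 5, against 31.4% of all genes), while Srebf2 and Scap did not pass the test. Insig1, the sterol-responsive brake on SREBP transport and itself a target of SREBPs, stood at 952, 1059 and 579 CPM in lactate libraries 1, 2 and 3, against 44.8, 53.4 and 52.7 CPM in control libraries 1, 2 and 3. The lowest lactate library was far above the highest control library. The fitted rise was 17.2-fold (log2 fold change 4.10 ± 0.23 SE; edgeR adjusted p = 2.7e-06), rank 102 of 13747 genes from the highest. With library totals the log2 fold change was 3.22. Insig2, which works as Insig1 does but is not known as a strong SREBP target, had 24.1, 21.8 and 23.7 CPM in lactate and 8.20, 6.55 and 6.30 CPM in control libraries. The groups did not overlap, and the log2 fold change was 1.72 ± 0.15 (edgeR adjusted p = 2e-05; 0.87 with library totals).

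Srebf1 had 248, 279 and 181 CPM in lactate libraries against 58.7, 68.9 and 54.3 CPM in control libraries. It rose by 1.96 ± 0.17 on the log2 scale (edgeR adjusted p = 1.9e-05; 1.09 with library totals). The table gives 1 value for the gene, so its promoters and the protein forms SREBP-1a and SREBP-1c cannot be told apart. Srebf2 was at 102 ± 8.81 CPM in lactate and 96.4 ± 4.32 CPM in control libraries (SD, n = 3 each), with overlapping groups and a fitted log2 change of 0.077 ± 0.10 (edgeR adjusted p = 0.53). With library totals it was called lower (−0.78), and with the length trend removed it was called higher (0.45). Scap, the sterol sensor that escorts SREBPs, was at 70.0 ± 8.87 CPM in lactate and 74.9 ± 2.23 CPM in control libraries and was not called (−0.10 ± 0.12, edgeR adjusted p = 0.47), but it was called lower with library totals (−0.97).

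The make-up of the regulator pairs differed between the groups within each library, where scaling cancels. The log2 ratio of Insig1 to Insig2, from counts + 1, was 5.30, 5.60 and 4.61 in lactate libraries 1, 2 and 3, against 2.45, 3.02 and 3.06 in control libraries. For Srebf1 over Srebf2 the log2 ratio was 1.37, 1.52 and 0.70 in lactate libraries, against −0.64, −0.50 and −0.88 in control libraries. Srebf1 thus had more counts than Srebf2 in all 3 lactate libraries and fewer in all 3 control libraries. The differences, lactate minus control, were 2.33 and 1.87, and neither pair overlapped between groups. The exact 2-sided permutation test gave p = 0.1 for each, the smallest that 3 against 3 libraries allow, and 0.125 adjusted over the 5 pairs examined.

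**Figure D2:**
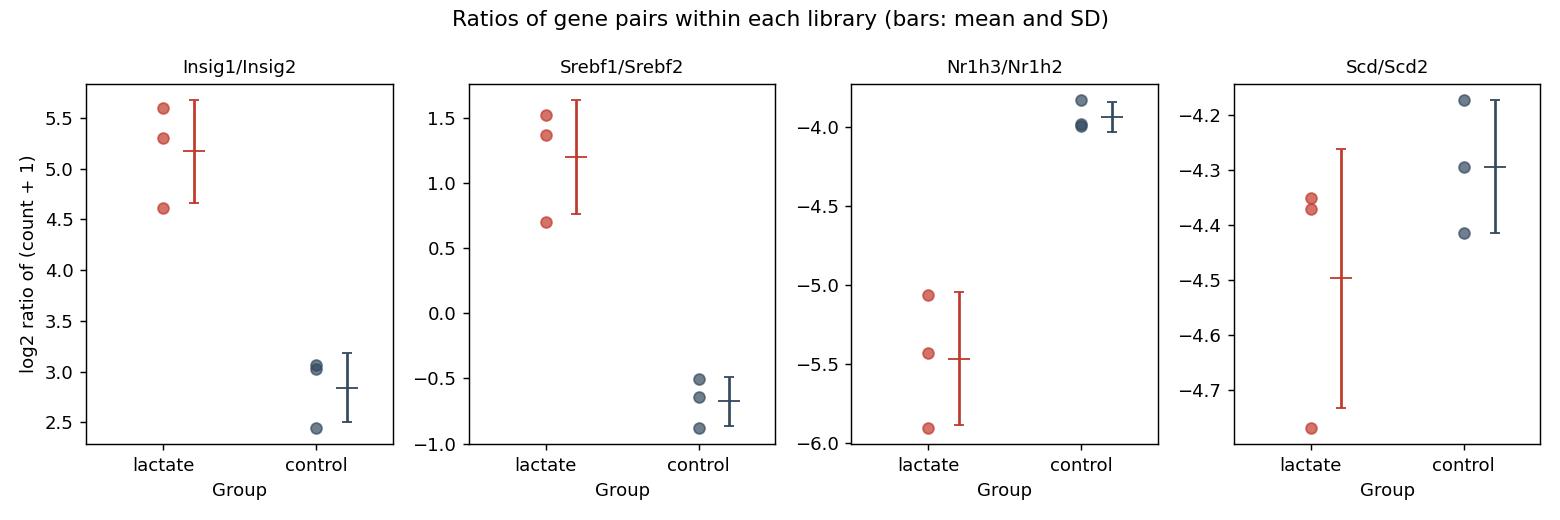
log2 ratio of the counts of 2 genes within each library (vertical axis, count + 1), with lactate left of control, points for libraries and bars for mean and SD. Lactate libraries lie above control libraries for Insig1/Insig2 and Srebf1/Srebf2 and below them for Nr1h3/Nr1h2, and the groups overlap for Scd/Scd2.

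The mevalonate steps build isoprenoid units from acetyl-CoA. Of the 7 genes here, 5 rose, against 31.4% of all genes, and 2 were not called, and their median was 0.91 on the log2 scale. With library totals 3 were higher (Hmgcs1, Pmvk and Mvd), against 12.5% of all genes, and 2 lower (Acat2 and Mvk), against 61.8%. Hmgcs1, which makes HMG-CoA at the entry to the pathway, had 203, 211 and 140 CPM in lactate libraries against 65.7, 68.9 and 70.8 CPM in control libraries. The groups were well apart, and it rose by 1.43 ± 0.16 on the log2 scale (edgeR adjusted p = 6.3e-05). Mvd, the decarboxylase that makes isopentenyl diphosphate, had 59.5, 64.1 and 45.2 CPM in lactate and 13.3, 14.3 and 15.3 CPM in control libraries, the largest rise of the 7 at 1.98 ± 0.15 (edgeR adjusted p = 9.8e-06). Pmvk, the kinase of the step before Mvd, rose to 26.2, 30.3 and 24.6 CPM in lactate libraries, against 12.2, 10.6 and 11.1 CPM in control libraries (1.25 ± 0.14).

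Smaller rises were found at the steps after Mvd, and Mvk and Acat2, of earlier steps, were not called. Idi1, the isomerase of isopentenyl diphosphate, rose by 0.91 ± 0.16 and Fdps, which joins isoprenoid units into farnesyl diphosphate, by 0.82 ± 0.090 (edgeR adjusted p = 0.001 and 6.7e-05). Neither was called with library totals (0.037 and −0.038), and their FPKM overlapped between groups. Fdps was nonetheless the most abundant of the 7 per length, at 83.8 ± 5.06 FPKM in lactate and 86.7 ± 0.878 FPKM in control libraries. Mvk, the first kinase after HMG-CoA reduction, was at 6.92 ± 1.74 CPM in lactate and 6.32 ± 0.587 CPM in control libraries (0.13 ± 0.22, edgeR adjusted p = 0.63). Acat2, the cytosolic thiolase that joins acetyl-CoA units, was at 13.3 ± 0.438 CPM in lactate and 13.9 ± 1.58 CPM in control libraries (−0.062 ± 0.14, edgeR adjusted p = 0.71).

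From squalene to cholesterol, 8 of 11 genes rose (31.4% of all genes) and 1 fell (34.6%), and the median was 0.87 on the log2 scale. With library totals 4 were higher (12.5% of all genes) and 4 lower (61.8%). Cyp51, which removes a methyl group of lanosterol, had 645, 650 and 564 CPM in lactate libraries against 97.7, 124 and 124 CPM in control libraries. That is a 5.37-fold rise (2.43 ± 0.13, edgeR adjusted p = 2.2e-06; 1.56 with library totals), with no overlap of the groups. Msmo1, the sterol methyl oxidase of the following steps, had 422, 443 and 328 CPM in lactate and 82.2, 74.6 and 86.3 CPM in control libraries, a 4.91-fold rise (2.30 ± 0.13, edgeR adjusted p = 3.1e-06; 1.42 with library totals).

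Dhcr7, which makes cholesterol in the last step of one branch of the pathway, rose by 1.54 ± 0.13, with 51.8, 45.2 and 45.6 CPM in lactate libraries against 14.4, 16.9 and 17.6 CPM in control libraries. Sc5d, the sterol desaturase just before Dhcr7, rose by 1.20 ± 0.10, with 97.3, 94.5 and 88.8 CPM in lactate and 38.2, 42.0 and 42.2 CPM in control libraries. Both were called with library totals too (0.68 and 0.34). Sqle, the squalene epoxidase and a rate-limiting enzyme, had 126, 121 and 81.5 CPM in lactate libraries against 45.8, 46.0 and 53.8 CPM in control libraries. It rose by 1.17 ± 0.17 (edgeR adjusted p = 0.00035), but with library totals it was at 0.30 and not called.

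The other enzymes of the pathway had smaller changes. Tm7sf2, a sterol reductase of low abundance, rose by 0.87 ± 0.23, and Ebp, the sterol isomerase, by 0.56 ± 0.12, and neither was called with library totals (0.013 and −0.30). Ebp was not called with the length trend removed either (0.26, edgeR adjusted p = 0.079). Fdft1, the squalene synthase, was at 48.8 ± 5.13 CPM in lactate and 37.4 ± 0.858 CPM in control libraries (0.39 ± 0.11, edgeR adjusted p = 0.014). Its call was lost without control replicate 2 (adjusted p = 0.056), without lactate replicate 1 (0.066) and with upper-quartile factors (0.23 on the log2 scale, adjusted p = 0.11). Lss, which closes the sterol rings, was the only 1 of the 18 cholesterol enzymes called lower with TMM factors, at 24.8 ± 3.53 CPM in lactate and 32.5 ± 0.476 CPM in control libraries (−0.39 ± 0.13, edgeR adjusted p = 0.025). Lss was not called (−0.084) once the length trend was removed, and its call was lost in each of the fits without control replicate 1, 2 or 3 or without lactate replicate 1 or 3 (adjusted p between 0.055 and 0.12). In the authors' deposited table the adjusted p was 0.053 for Lss and 0.084 for Fdft1. Nsdhl, at 26.2 ± 1.59 CPM in lactate and 25.0 ± 2.95 CPM in control libraries, and Hsd17b7, at 6.37 ± 1.96 CPM in lactate and 7.86 ± 0.595 CPM in control libraries, act together in removing the methyl groups of sterols and were not called (0.068 ± 0.13 and −0.31 ± 0.25).

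Per length, Cyp51 and Msmo1 held a larger share of the pathway's transcripts in lactate libraries. They had the largest log2 fold changes of the 18 enzymes (2.43 and 2.30) and were picked after their values were seen. Their larger share, and the smaller gap over the other 16, follow from that choice and are no separate result. Of the 18, 13 were called higher with TMM factors (31.4% of all genes) and 1 lower (34.6%). Summed over the 18 enzymes from Acat2 to Dhcr7, FPKM was 577, 585 and 539 in lactate libraries and 366, 364 and 387 in control libraries. Cyp51 and Msmo1 together supplied 50.4% ± 0.402 of that sum in lactate and 27.6% ± 0.916 in control libraries (SD, n = 3 each). Over the other 16 enzymes the sum was 284, 291 and 270 FPKM in lactate libraries, against 268, 264 and 276 FPKM in control libraries, and the groups overlapped. These sums carry the authors' scaling by library total, on which most genes were lower in lactate, and no test was made over them.

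**Figure D3:**
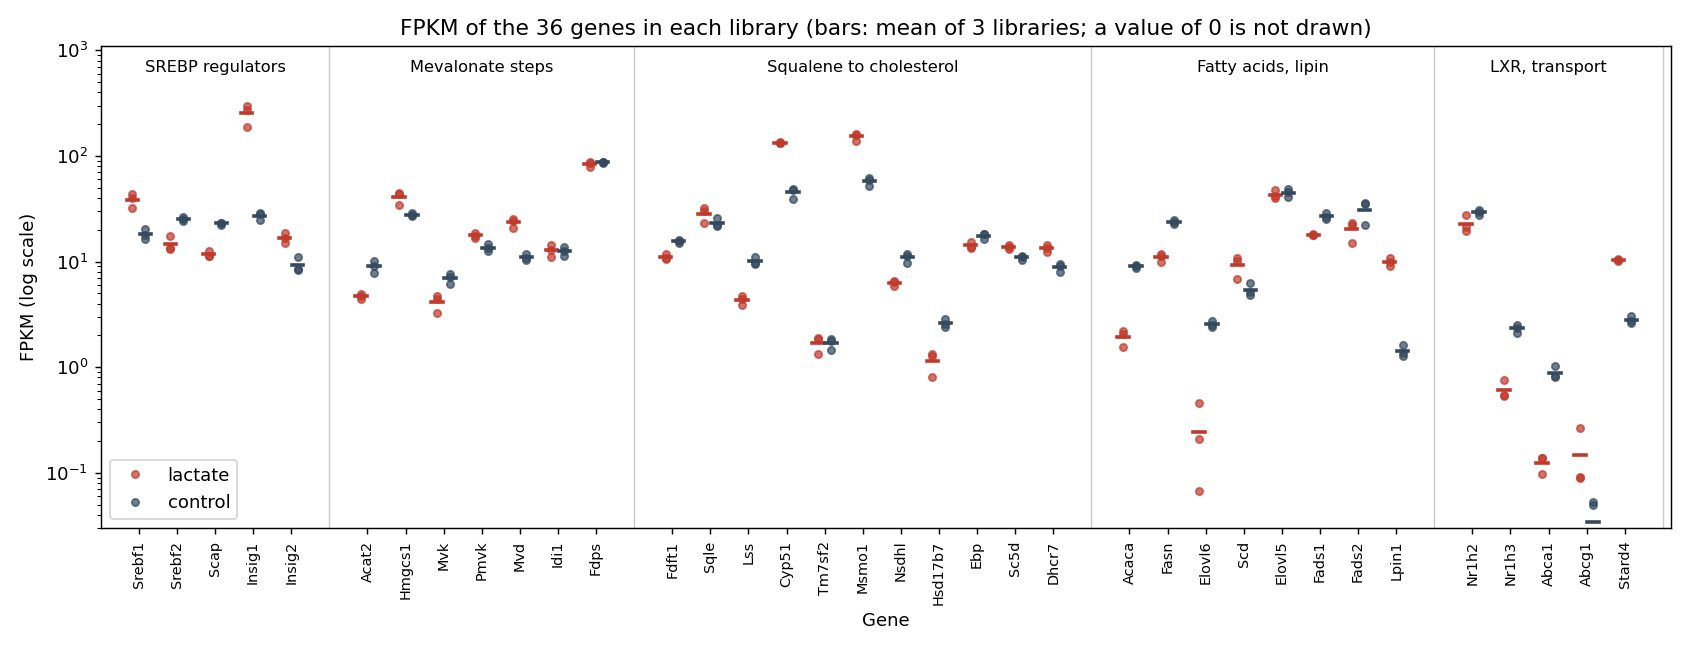
FPKM on a log axis (vertical) of each of the 36 genes in each library, lactate left of control, with bars at the mean of 3 libraries. Insig1, Cyp51 and Msmo1 reach over 100 FPKM in lactate libraries, the Fdps levels of the groups overlap, and Elovl6, Nr1h3, Abca1 and Abcg1 lie below 1 FPKM in lactate libraries.

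Promoter sequences were available for 28 of the 36 genes from RefSeq (rat assembly GRCr8), as 250 bases before and 50 after a gene's start, and were searched on both strands. The CCAAT box, the site of the factor NF-Y that is known to act beside SREBPs, was found in 19 of the 28 genes (67.9%), against 39.3% of 9397 tested genes with such a window. Of the 18 genes called higher with a promoter, 14 held it, of the 7 not called, 4, and of the 3 called lower, 1. This split was not set against all genes by their calls, and a link between the box and the rises was not tested. The most boxes, 5 each, were in Mvk and Nsdhl, which were not called. The sterol regulatory element as TCACNCCAC, of which TCACCCCAC is a case, was found in 0 of the 28 windows and in 1.26% of the tested genes' windows, which says only that these letters are not in these windows. The E-box CACGTG, which SREBP-1 can also bind, was found in 5 of the 28 genes (17.9%: Insig1, Scap, Sc5d, Elovl5 and Abca1), against 9.88% of the tested genes. The windows of Insig1, Hmgcs1, Msmo1 and Cyp51 are given 5′ to 3′ on the gene's strand because these genes were among those that rose with TMM factors and with library totals, 3 of them with the box and Cyp51 without it. Capitals mark CCAAT or its reverse complement ATTGG.
Insig1, chr4:8057720-8058019, minus strand: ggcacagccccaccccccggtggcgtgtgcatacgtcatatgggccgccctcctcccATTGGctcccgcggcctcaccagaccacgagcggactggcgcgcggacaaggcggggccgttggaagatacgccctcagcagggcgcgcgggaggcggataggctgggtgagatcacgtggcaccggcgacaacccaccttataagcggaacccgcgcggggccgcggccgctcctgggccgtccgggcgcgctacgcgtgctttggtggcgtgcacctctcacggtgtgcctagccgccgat
Hmgcs1, chr2:53382054-53382353, plus strand: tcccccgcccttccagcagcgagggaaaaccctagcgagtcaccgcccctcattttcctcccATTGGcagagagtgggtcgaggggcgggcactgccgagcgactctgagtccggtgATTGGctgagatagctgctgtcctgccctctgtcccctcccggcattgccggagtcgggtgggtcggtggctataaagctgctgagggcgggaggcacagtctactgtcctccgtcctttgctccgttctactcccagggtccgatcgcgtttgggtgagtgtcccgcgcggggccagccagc
Msmo1, chr16:29746863-29747162, plus strand: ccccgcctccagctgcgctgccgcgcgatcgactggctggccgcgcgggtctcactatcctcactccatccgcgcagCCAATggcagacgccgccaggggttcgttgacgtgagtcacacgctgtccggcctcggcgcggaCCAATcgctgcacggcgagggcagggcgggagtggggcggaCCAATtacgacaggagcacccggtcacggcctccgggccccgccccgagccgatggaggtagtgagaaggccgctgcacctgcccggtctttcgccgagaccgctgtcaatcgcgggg
Cyp51, chr4:30991443-30991742, plus strand: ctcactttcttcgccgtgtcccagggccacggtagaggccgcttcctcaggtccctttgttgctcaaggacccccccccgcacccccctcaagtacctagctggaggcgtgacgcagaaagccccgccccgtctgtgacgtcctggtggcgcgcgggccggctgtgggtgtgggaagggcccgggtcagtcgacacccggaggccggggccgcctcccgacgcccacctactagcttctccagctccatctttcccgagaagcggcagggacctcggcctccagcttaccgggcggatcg
Counted from the start of the gene, the first base of the box lies at −193 in Insig1, at −188 and −133 in Hmgcs1 and at −173, −109 and −68 in Msmo1. A match is a run of letters and not a measured binding site.

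The genes of fatty acid synthesis and modification, grouped here with Lpin1 of triglyceride synthesis, did not move together. Of the 8, 4 rose (31.4% of all genes), 2 fell (34.6%) and 2 were not called. With library totals 2 (Scd and Lpin1) were higher (12.5% of all genes) and 5 lower (61.8%), a share near that of all genes. Acaca, the acetyl-CoA carboxylase that commits carbon to fatty acids, had 19.7, 19.4 and 12.5 CPM in lactate libraries against 40.6, 44.5 and 44.4 CPM in control libraries, −1.33 ± 0.18 on the log2 scale (edgeR adjusted p = 0.00021). Its transcript is longer than 95.4% of tested genes, and with the length trend removed it was still called lower at −0.85. Fasn, the fatty acid synthase, had 156, 152 and 115 CPM in lactate and 163, 160 and 173 CPM in control libraries. The groups did not overlap, but Fasn was not called (−0.23 ± 0.13, edgeR adjusted p = 0.15). It is longer than 99.0% of tested genes, and its direction was set by the processing. Library totals gave a call of lower (−1.10), and removing the length trend gave a call of higher (0.41).

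Elovl6, which lengthens palmitate, was near the limit of detection in lactate libraries, with 3, 8 and 19 counts in lactate libraries against 92, 112 and 109 counts in control libraries. The log2 fold change was −2.42 ± 0.48 (edgeR adjusted p = 0.002), and without lactate library 3 it was −3.04, still called. Elovl5, which lengthens polyunsaturated fatty acids, instead rose by 0.81 ± 0.11, with 63.7, 67.6 and 67.0 CPM in lactate and 34.3, 41.2 and 37.8 CPM in control libraries, though with library totals it was at −0.050 and not called. Scd, a desaturase that makes monounsaturated fatty acids, had 64.6, 71.2 and 39.1 CPM in lactate libraries against 16.3, 17.9 and 21.4 CPM in control libraries and rose by 1.65 ± 0.22 (edgeR adjusted p = 0.00022). Its close relative Scd2 had far more counts and rose alongside it, at 1286 ± 198 CPM in lactate and 366 ± 65.0 CPM in control libraries (1.81 ± 0.16). The log2 ratio of Scd to Scd2 counts was −4.50 ± 0.235 in lactate and −4.29 ± 0.121 in control libraries (SD, n = 3 each; exact 2-sided permutation p = 0.3, adjusted p = 0.3), and reads shared between such similar genes cannot be assigned with certainty.

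The desaturases of polyunsaturated fatty acids had small differences. Fads1 was at 86.0 ± 6.82 CPM in lactate and 70.3 ± 5.22 CPM in control libraries (0.29 ± 0.11, edgeR adjusted p = 0.040), and its call was lost in the fits without control replicate 1, 2 or 3 and without lactate replicate 1 or 2 (adjusted p between 0.056 and 0.12). It was also lost with upper-quartile factors (0.14 on the log2 scale, adjusted p = 0.33) and without the filter (adjusted p = 0.078). The authors' deposited table gives it an adjusted p of 0.18. Fads2 had overlapping groups, at 38.7 ± 11.0 CPM in lactate and 32.3 ± 8.19 CPM in control libraries, and was not called (0.26 ± 0.25, edgeR adjusted p = 0.39). Lpin1, a phosphatidate phosphatase of triglyceride synthesis that also acts as a nuclear coregulator, had by contrast the second largest rise of all 35 genes. Its levels were 40.1, 45.3 and 43.1 CPM in lactate libraries against 2.98, 3.29 and 3.84 CPM in control libraries, a 12.7-fold difference (3.67 ± 0.15, edgeR adjusted p = 1.3e-06; 2.81 with library totals). Within its libraries Lpin1 stood at percentiles 68.4, 70.8 and 69.3 of FPKM in lactate and 18.0, 18.8 and 20.8 in control.

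**Figure D4:**
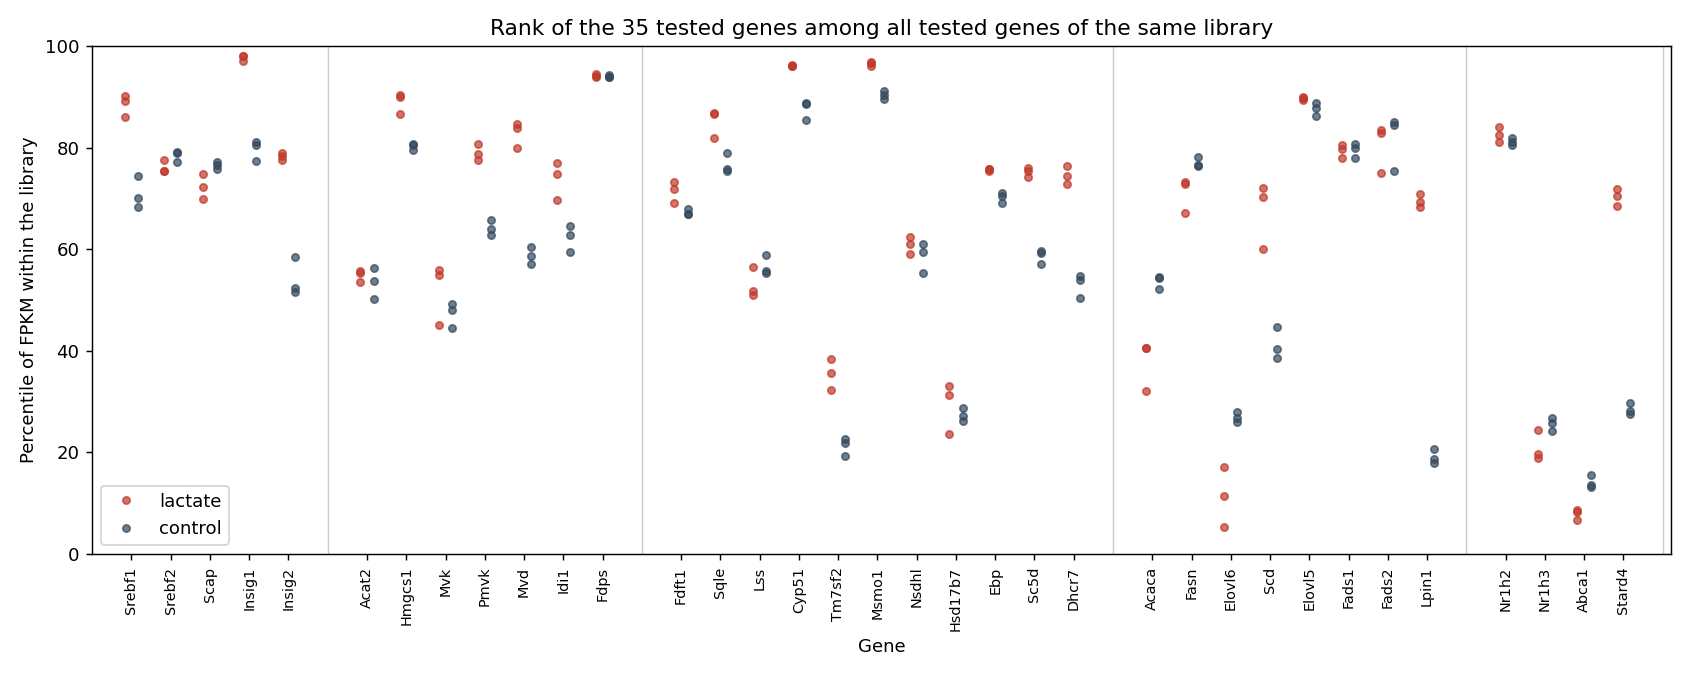
Percentile of a gene's FPKM among all tested genes of the same library (vertical axis) for the 35 tested genes, lactate left of control, 1 point per library. Lpin1, Stard4, Scd, Insig2, Mvd and Dhcr7 stand well above control in lactate libraries, Fdps stays between 93.8 and 94.4 in all 6 libraries, and Acaca, Elovl6 and Abca1 stand below it.

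Of the genes of sterol export and transport, the exporter Abca1 and the receptor gene Nr1h3 fell, and the receptor gene Nr1h2 and the sterol carrier Stard4 rose. Abca1, the transporter that loads cholesterol onto apolipoproteins, had 1.45, 2.16 and 1.85 CPM in lactate libraries against 6.28, 8.16 and 6.47 CPM in control libraries. The groups did not overlap, and it fell by 1.93 ± 0.24 on the log2 scale, 3.82-fold lower (edgeR adjusted p = 0.00013). Its transcript is longer than 99.4% of tested genes, and removing the length trend left it called lower (−1.24). Abcg1, a partner exporter, had 8, 17 and 12 counts in lactate and 7, 0 and 6 counts in control libraries and was not tested. The log2 ratio of Abca1 to Abcg1 was 1.77 ± 0.347 in lactate and 6.45 ± 1.97 in control libraries (SD, n = 3 each; exact 2-sided permutation p = 0.1), and it rests on very few Abcg1 counts. The difference of −4.68, lactate minus control, was −3.54 without control library 2, where Abcg1 had 0 counts, and −5.82 with 0.1 instead of 1 added to the counts. The authors' deposited table gives Abcg1 itself a log2 fold change of 2.43 with an adjusted p of 0.011.

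Nr1h3, which encodes LXR-alpha, had 28, 39 and 33 counts in lactate libraries against 133, 138 and 149 counts in control libraries and fell by 1.04 ± 0.28 on the log2 scale (edgeR adjusted p = 0.0098). Nr1h2, which encodes the widely expressed LXR-beta, had 56.6, 62.9 and 71.1 CPM in lactate and 46.3, 42.9 and 45.2 CPM in control libraries. It was called higher (0.50 ± 0.11, edgeR adjusted p = 0.0041), but with library totals it was at −0.35 and not called. The log2 ratio of Nr1h3 to Nr1h2 counts was −5.43, −5.07 and −5.90 in lactate libraries against −3.98, −3.99 and −3.83 in control libraries, without overlap (exact 2-sided permutation p = 0.1, the smallest possible). Stard4, a soluble carrier of cholesterol and an SREBP target, rose 6.76-fold, with 38.96, 41.7 and 35.8 CPM in lactate libraries against 6.15, 5.50 and 5.56 CPM in control libraries (2.76 ± 0.13, edgeR adjusted p = 1.9e-06; 1.89 with library totals).

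The lactate libraries were not equal in these genes. Among the 22 genes called higher, lactate library 3 was the lowest lactate library, and so the nearest to control, in 15 (68.2%), against 49.4% of all 4319 genes called higher. Relative to the lower of the other lactate libraries, the largest gaps were in Scd, Insig1 and Sqle. Insig1 was at 579 CPM in lactate library 3 against 952 and 1059 CPM in the other lactate libraries. Without lactate library 3, 22 of the genes were called higher and 4 lower, with Lss no longer called. What part this library has in the size of the rises was not tested.

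The other genes around the pathway were mixed, and the shares of calls are to be read against all genes, of which 31.4% were higher and 34.6% lower with TMM factors, and 12.5% higher and 61.8% lower with library totals. Of 14 tested genes of SREBP processing and turnover, 6 were higher, 4 lower and 4 not called, with a median of 0.22 on the log2 scale, and with library totals 1 was higher and 8 lower (median −0.64). Erlin2, a membrane protein of the endoplasmic reticulum that takes part in sterol-regulated degradation, fell by 2.97 ± 0.22, to 5.87 ± 1.86 CPM in lactate against 45.9 ± 1.11 CPM in control libraries (edgeR adjusted p = 7.6e-06). Hsp90b1, a chaperone of the endoplasmic reticulum, rose by 1.60 ± 0.087. Fbxw7, the ubiquitin ligase subunit that marks active SREBPs for breakdown, rose by 1.30 ± 0.18, and with library totals it was at 0.45 and not called. Of 13 genes of acetyl-CoA, malonyl-CoA and fatty acid supply, 3 were higher, 2 lower and 8 not called. With library totals 11 of them were lower. With the length trend removed 6 were higher (31.1% of all genes) and 2 lower (33.2%). Mid1ip1, an activator of acetyl-CoA carboxylase, rose by 1.15 ± 0.14 (0.28 and not called with library totals), while Mlycd, which breaks malonyl-CoA down, and Mcat, of mitochondrial fatty acid synthesis, fell by 1.02 ± 0.22 and 0.93 ± 0.18.

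Of 11 tested genes of elongation and desaturation, 5 rose, 3 fell and 3 were not called, against 31.4% of all genes higher and 34.6% lower. With library totals 2 were higher and 6 lower. Elovl1, which lengthens long saturated fatty acids, rose by 1.13 ± 0.090, and Tecr, which completes the elongation cycle, by 0.93 ± 0.14. Tecr was not called with library totals (0.074). In glycerolipid synthesis 5 of 16 genes rose and 7 fell, near the shares of all genes, and with library totals 2 were higher and 11 lower. Dgat2, which makes triglyceride, rose by 2.61 ± 0.14, to 30.6 ± 2.25 CPM in lactate against 5.02 ± 0.440 CPM in control libraries, and Gpat3, of the first acylation of glycerol phosphate, by 1.58 ± 0.19. Pcyt1a, which limits phosphatidylcholine synthesis, fell by 1.67 ± 0.17.

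In sterol transport and storage 4 of 16 genes rose and 7 fell (median −0.28 on the log2 scale), against 31.4% of all genes higher and 34.6% lower. With library totals 3 were higher and 12 lower, against 12.5% and 61.8%. With the length trend removed 4 were higher and 3 lower, against 31.1% and 33.2%. Gramd1a, which carries cholesterol from the plasma membrane to the endoplasmic reticulum, rose by 2.23 ± 0.11, Npc2, which binds cholesterol in lysosomes, by 2.04 ± 0.12 and Osbp, an oxysterol-binding transfer protein, by 1.18 ± 0.094. All 3 were called with library totals (1.37, 1.18 and 0.32). These 3 had the smallest p of the list, but its largest change was a fall, in Stard5, named after its values were seen. Stard5 was at 0.993 ± 0.203 CPM in lactate and 8.52 ± 1.37 CPM in control libraries (−3.10 ± 0.25, edgeR adjusted p = 1.2e-05). Of 9 tested LXR targets, partners and oxysterol enzymes, 4 fell, against 34.6% of all genes, and 5 were not called. With library totals 7 were lower (61.8% of all genes), and with the length trend removed 2 were lower (33.2%). Mylip, an LXR target that marks lipoprotein receptors for breakdown, was at 4.45 ± 0.0839 CPM in lactate and 10.4 ± 0.224 CPM in control libraries and fell by 1.22 ± 0.15 (edgeR adjusted p = 0.00014). Rxra, the partner receptor of LXRs, fell by 1.03 ± 0.20.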

How the data were processed

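RNA of cultured rat nucleus pulposus cells was sequenced in 3 libraries of cells given 10 mM lactate and 3 control libraries, grouped by the labels, which name a kit for mRNA libraries. The authors deposited raw read counts per gene and FPKM values, per the file headers, in a table that also holds their own log2 fold changes and p-values. Mouse builds (GRCm38, mm10) stand in the submitters' processing notes, although the gene symbols are those of rat. Aligner, counter and strand setting: not given in the sources used here. Genes with near-identical copies or overlapping neighbours are therefore uncertain. Counts were tested as deposited over the whole table with edgeR 4.0.16 (quasi-likelihood test) in R 4.3.3. TMM factors and filterByExpr, which kept 13747 genes, were used, and a call needed a Benjamini-Hochberg adjusted p under 0.05. SE is the log2 fold change over the root of the F statistic.

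The alternatives tried were scaling by RLE, by upper quartile or by library totals, other filters, DESeq2 1.42.0, limma-voom and limma-trend (limma 3.58.1) on log2(FPKM + 1) and log2(FPKM + 0.1), a replicate block, each library left out, a smooth trend on relative length (counts over FPKM) removed per library, and dropping the 32 genes at 0 somewhere but over 1000 elsewhere. The tests were tested on simulated data. The genes, lists and alternatives were chosen with earlier results of these data known. All 36 genes are named, and from each other list up to 3 called genes with the smallest p and a mean CPM of at least 1. A gene that this rule names is not reported here. A comparison of the Insig and SREBP proteins was not made here. Depths of 30291357 to 38989574 counts bound the precision of the low counts.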

Additional observations from a re-analysis of the deposited data

How the results depend on the processing

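Of the 35 tested genes, 17 kept their direction and their side of the threshold in all 18 alternative fits: Insig1, Insig2, Srebf1, Hmgcs1, Pmvk, Mvd, Cyp51, Msmo1, Sc5d, Dhcr7, Scd, Lpin1 and Stard4 higher, and Acaca, Elovl6, Nr1h3 and Abca1 lower. The count of the 36 called higher, 22, became 13 with library totals and 13 with limma-trend on log2(FPKM + 1) and on log2(FPKM + 0.1), and 14 when a 2-fold change was also asked. The count called lower, 5, became 15 with library totals and 17 with both FPKM fits. Over all genes, 4319 called higher became 1722 with library totals, 1781 and 1770 with the FPKM fits and 2493 with a 2-fold change, and 4760 called lower became 8492, 8759, 8737 and 3095. Leaving out each library gave 20 to 22 of the genes higher and 4 to 5 lower, and 3922 to 4489 genes higher and 4091 to 4918 lower overall.

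Log2 fold changes that turned their direction with library totals, log2(FPKM + 1) and log2(FPKM + 0.1), in that order, were −0.30, −0.30 and −0.31 for Ebp, −0.050, −0.060 and −0.061 for Elovl5, −0.57, −0.56 and −0.58 for Fads1, −0.62, −0.60 and −0.62 for Fads2, −0.48, −0.46 and −0.49 for Fdft1, −0.038, −0.050 and −0.051 for Fdps, −0.75, −0.65 and −0.76 for Mvk, −0.35, −0.36 and −0.37 for Nr1h2, −0.79, −0.71 and −0.79 for Nsdhl and −0.78, −0.76 and −0.79 for Srebf2. Tm7sf2 turned to −0.00097 and −0.0040 in the FPKM fits. These scalings shift all genes, as the median of −0.96 with library totals shows. With upper-quartile factors Mvk, Nsdhl and Srebf2 were at −0.023, −0.088 and −0.082. With the length trend removed Fasn was at 0.41, Mvk at −0.094 and Scap at 0.22; the cause was not tested. Leaving out a library gave −0.15 to 0.016 for Acat2, −0.026 to 0.14 for Nsdhl and −0.19 to 0.012 for Scap, none of them called.

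The labels do not say if lactate and control libraries of the same number are pairs. Same-numbered libraries correlated at 0.008, 0.038 and 0.084 in their deviations from the group means, and the others at −0.108 to 0.071. Deviations from a mean of 3 libraries are not independent, so these values cannot settle whether the libraries were paired. With the replicate block 21 of the genes were higher and 5 lower, and 4190 genes were higher and 4624 lower overall. The call of Fads1 was lost (0.29, adjusted p = 0.073). Lactate libraries 1 and 2 correlated best with a control library of another number, and lactate library 3 with its own.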

Other observations

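Beyond sterols, the mevalonate pathway feeds dolichol, ubiquinone and protein prenylation. Of 12 genes of these branches, 2 (Nus1 and Rce1) were higher (31.4% of all genes), 5 lower (34.6%) and 5 not called. Their median was −0.36 on the log2 scale, against −0.10 over all genes tested. With library totals 1 was higher and 10 lower, against 12.5% and 61.8% of all genes. Dolk, the dolichol kinase, had 2.00, 1.88 and 1.75 CPM in lactate libraries against 21.7, 19.0 and 20.7 CPM in control libraries, −3.45 ± 0.16 on the log2 scale (edgeR adjusted p = 1.7e-06). The subunits of the enzyme that builds the dolichol chain moved apart. Dhdds was at 10.2 ± 1.70 CPM in lactate and 32.4 ± 3.14 CPM in control libraries (SD, n = 3 each) and fell by 1.67 ± 0.16, while Nus1 was at 204 ± 5.72 CPM in lactate and 75.0 ± 2.75 CPM in control libraries and rose by 1.44 ± 0.088. All 3 were called in the same direction with library totals.

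AMPK is the energy-sensing kinase that inhibits acetyl-CoA carboxylase. Of its subunit genes listed, Prkaa2 did not pass the filter on low counts and Prkag1 was not found. The 4 tested (Prkaa1, Prkab1, Prkab2 and Prkag2) were all lower, and Stk11, of the upstream kinase, was higher. Over all genes 34.6% were lower and 31.4% higher. The counts were the same with library totals, where 61.8% of all genes were lower and 12.5% higher. Stk11, which encodes the upstream kinase LKB1, stood at 206, 214 and 216 CPM in lactate libraries against 51.2, 43.1 and 45.4 CPM in control libraries. It rose by 2.19 ± 0.10 (edgeR adjusted p = 1.9e-06). Prkab1 and Prkag2, of the regulatory subunits, fell by 1.01 ± 0.12 and 1.25 ± 0.15. Rce1, Prkaa1 and Prkab2 were named after their values were seen.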
